A study of Mus musculus with 12 samples.

Results

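The heat shock chaperones described here are 10 genes of the mouse cytosol and mitochondria: Hspa1a, Hspa1b, Hspa8, Hsp90aa1, Hspb1, Cryab, Hsph1, Dnajb1, Hspd1 and Hspe1. They were taken as every probe set, an array's group of short oligonucleotides against one transcript, that the platform annotation assigns to a single gene whose current or former symbol is one of the 10. This gave 23 of the 22690 probe sets on the array, and 10 of its 12394 annotated genes, and 22 of the probe sets passed the level filter and were tested. The study measured total RNA of primary mouse embryonic fibroblasts, connective tissue cells grown from embryos of embryonic day 13.5 and taken to passage 2, on Affymetrix arrays. Its 4 groups are untreated wildtype cells, untreated Rb null cells, wildtype cells given 16 µM cisplatin for 24 hours, and Rb null cells given the same dose for the same time, with 3 arrays each. Rb null cells lack the retinoblastoma gene Rb1, and cisplatin is a platinum compound that crosslinks DNA. Strain and Rb1 allele are not given in the sources used here, and wildtype cells are the control in both treatment arms. According to the design text each group was a single RNA sample hybridised 3 times, so each SD and p-value below covers the spread between hybridisations and not between cultures or embryos.

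Heat shock proteins are chaperones: they bind unfolded or partly folded proteins and keep them from aggregating. HSP70 proteins bind short hydrophobic stretches in cycles driven by ATP, J-domain proteins such as Dnajb1 bring them their clients, and nucleotide exchange factors such as Hsph1 reset them. HSP90 acts later, on kinases and other signalling proteins, small heat shock proteins hold clients without using ATP, and Hspd1 with its lid Hspe1 forms the folding chamber of mitochondria. Many of these genes are switched on by heat shock factor 1, which binds heat shock elements, inverted repeats of the 5-base unit NGAAN, while some members, Hspa8 among them, are also made abundantly in unstressed cells.

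Promoters are shown for Hspa1a, Hspb1, Hsph1 and Dnajb1, whose levels differed between groups in different ways, and for the mitochondrial Hspe1 for contrast. RefSeq windows of 250 bases before to 50 bases after a start on build GRCm38.p6 were matched for 7 of the 10 genes, with Hspa8, Hsp90aa1 and Cryab unmatched. Capitals mark pairs of adjoining units, GAANNTTC or TTCNNGAA, each of which reads the same on both strands and may overlap the next pair. All windows run 5′ to 3′ on the gene's strand, at chr17:34972107-34972406 (minus) for Hspa1a, chr5:135887669-135887968 (plus) for Hspb1, chr5:149636287-149636586 (minus) for the first Hsph1 start, chr8:83607925-83608224 (plus) for the first Dnajb1 start and chr1:55087898-55088197 (plus) for Hspe1.
Hspa1a: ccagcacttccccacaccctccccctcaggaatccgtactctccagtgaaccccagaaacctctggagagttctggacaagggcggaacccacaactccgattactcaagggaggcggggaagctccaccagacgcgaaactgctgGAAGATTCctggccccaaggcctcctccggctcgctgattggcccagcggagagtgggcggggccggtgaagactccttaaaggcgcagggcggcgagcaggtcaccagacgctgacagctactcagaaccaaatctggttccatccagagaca
Hspb1: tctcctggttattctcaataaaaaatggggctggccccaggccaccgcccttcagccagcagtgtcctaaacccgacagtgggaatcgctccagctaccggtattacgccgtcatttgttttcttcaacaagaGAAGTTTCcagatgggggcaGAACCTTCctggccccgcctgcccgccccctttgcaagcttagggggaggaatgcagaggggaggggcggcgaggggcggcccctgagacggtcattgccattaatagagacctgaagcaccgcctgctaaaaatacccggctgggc
Hsph1: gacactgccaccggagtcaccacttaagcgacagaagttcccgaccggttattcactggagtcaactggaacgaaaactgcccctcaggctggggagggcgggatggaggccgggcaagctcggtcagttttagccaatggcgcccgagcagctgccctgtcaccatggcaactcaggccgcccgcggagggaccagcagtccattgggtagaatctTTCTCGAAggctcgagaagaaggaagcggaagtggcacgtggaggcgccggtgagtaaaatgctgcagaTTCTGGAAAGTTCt
Dnajb1: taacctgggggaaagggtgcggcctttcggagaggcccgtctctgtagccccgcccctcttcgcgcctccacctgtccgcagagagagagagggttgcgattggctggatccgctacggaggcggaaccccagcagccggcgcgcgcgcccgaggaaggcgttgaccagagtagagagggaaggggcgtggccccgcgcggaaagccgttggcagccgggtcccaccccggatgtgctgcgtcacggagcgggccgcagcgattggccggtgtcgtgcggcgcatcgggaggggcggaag
Hspe1: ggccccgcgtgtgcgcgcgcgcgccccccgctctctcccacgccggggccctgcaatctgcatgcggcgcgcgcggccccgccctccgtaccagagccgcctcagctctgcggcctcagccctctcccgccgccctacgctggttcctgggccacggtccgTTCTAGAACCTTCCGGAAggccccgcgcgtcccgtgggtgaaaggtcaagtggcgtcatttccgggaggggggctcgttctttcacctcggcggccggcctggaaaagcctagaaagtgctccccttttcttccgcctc

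Of the 7 matched genes, 6 held at least 1 such pair in a window, all except Dnajb1. Either pair occurred in 15.1% of all 32817 promoter windows of the same length. Runs of 3 units, GAANNTTCNNGAA or TTCNNGAANNTTC, were found in 4 of the 10 member windows, against 0.603% of all windows. These 4 hold only 2 stretches of DNA: both Hsph1 windows overlap, and the Hspe1 window shares 285 bases with the second Hspd1 window, which reads the same 4 adjoining units from the other strand. These matches are letters in a window and were not tested for binding. The Hspa1b window, chr17:34959189-34959488 (minus), differed from that of Hspa1a at 4 of 300 bases, as C44T, T47C, T249G and C276T with the Hspa1a base first and positions counted from the 5′ end. Both genes lie next to each other on chromosome 17 with no protein-coding start between them, and Hspd1 and Hspe1 are neighbours of the same kind on chromosome 1.

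Array signals, in the deposited MAS5 units, had the same trimmed mean of 500.1 to 500.2 on every array, and correlation of log2 signals within groups was 0.978 to 0.988 over 12 pairs. Rb1 checked the genotype labels, at 459.7 ± 35.4 (SD, n = 3) on the untreated wildtype arrays and 94.0 ± 9.99 on the untreated Rb null arrays, and 382.9 ± 60.1 and 89.6 ± 14.5 after cisplatin. Untreated wildtype arrays differed from the other 3 groups in sex-linked transcripts, with the Y-linked Eif2s3y at a mean of 478 against at most 6.63 elsewhere and Xist at 132 against 2379 to 3443. These cells were thus of other sex makeup than those of all other groups, so untreated and treated wildtype cells were not from the same embryo or mix of embryos. In the comparisons that use untreated wildtype cells, a difference of embryo or culture cannot be told apart from cisplatin or genotype, and was not tested. Of 9 fibroblast markers all passed the level filter, with a sum of 36172 to 63831 that rests mostly on Vim, Fn1 and the collagens, while group means of Pdgfra were 85.0 to 334.6. Of these 9, 6 were called lower in treated Rb null than in treated wildtype cells. In bulk RNA, a change in the number of cells of one type and in RNA per cell cannot be told apart.

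Hspa1a, Hspa1b, Cryab and Dnajb1 were called higher after cisplatin in both genotypes, the wildtype comparison using untreated cells of other sex makeup. Hsph1 was called in wildtype cells, and Hspb1 and Hsp90aa1 in Rb null cells. A probe set was called when its adjusted p from limma with Benjamini-Hochberg adjustment over 13575 probe sets was below 0.05 and its difference at least 1.5-fold on the scale of log2(signal + 10.4), which understates changes of weak probe sets. In wildtype cells 9 of the 22 member probe sets, from 5 genes, were called higher, against 13.5% of all tested probe sets, and 0 lower, against 13.2%. In Rb null cells 11 of 22, from 6 genes, were called higher, against 15.8% of all, and 0 lower, against 20.9%. The median log2 change over the members was 0.39 in wildtype cells and 0.60 in the Rb null cells, beside 0.038 and -0.023 over all tested probe sets. Several of these probe sets share a gene. At an unadjusted p under 0.05 in limma, 13 were higher and 2 lower in wildtype cells and 15 were higher and 1 lower in Rb null cells. When each array was centred on its median, the median change of all probe sets in Rb null cells moved from -0.023 to 0.12 and the share of calls that were higher from 43.0% to 56.3%, so that shifts of this size depend on the scaling.

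**Figure D1:**
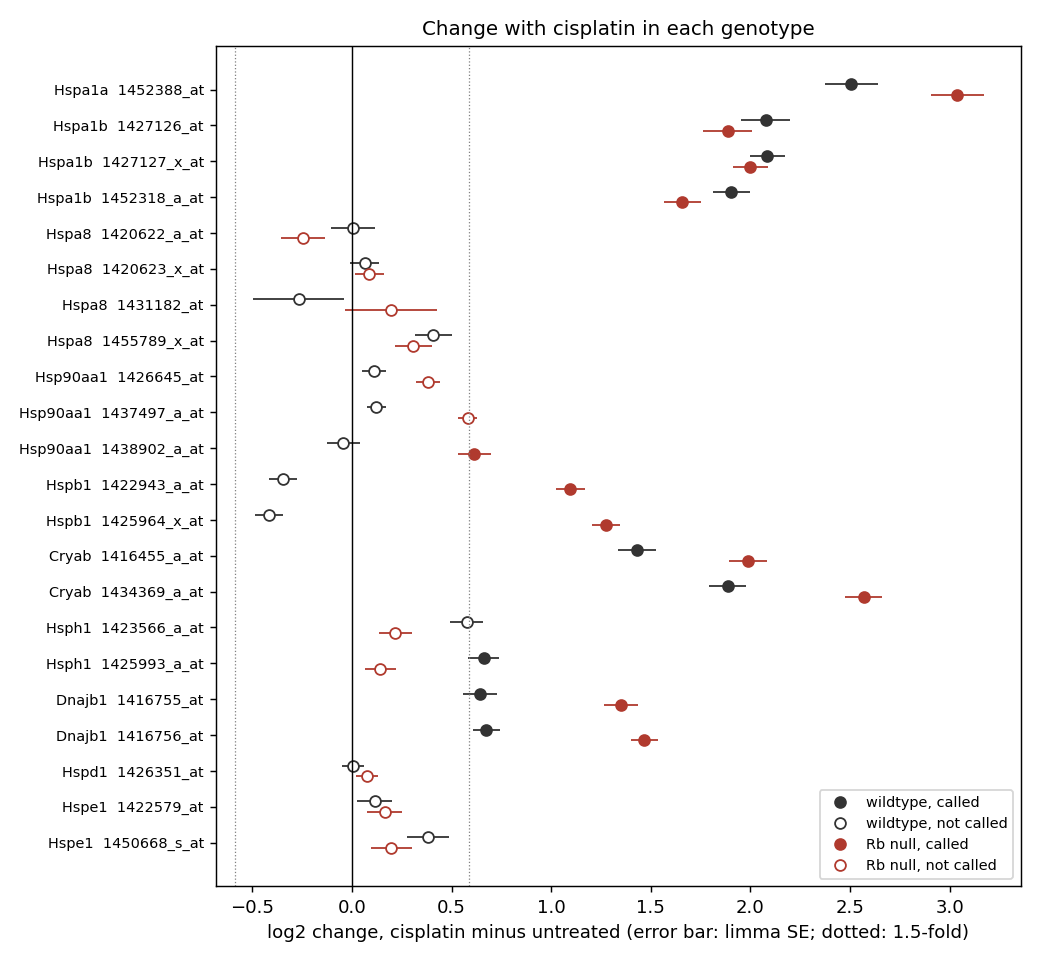
Log2 change with cisplatin (x axis, cisplatin minus untreated, limma estimate ± SE) for each of the 22 tested member probe sets (y axis), in wildtype and Rb null cells, with filled symbols for called changes and dotted lines at 1.5-fold. Hspa1a, Hspa1b and Cryab lie to the right of the dotted line in both genotypes, Hspb1 does so in Rb null cells, and Hspa8, Hspd1 and Hspe1 lie between the lines.

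Hspa1a and Hspa1b encode nearly identical stress-inducible HSP70 proteins, and how far each probe set measures only its own gene is uncertain. The Hspa1a probe set 1452388_at had signals of 120.5, 139 and 140.1 on the untreated wildtype arrays and 179, 191 and 237 on the untreated Rb null arrays. After cisplatin it read 672, 895 and 867 in wildtype cells and 1977, 1567 and 1656 in the Rb null cells. No array of one group overlapped another group, and the 4 groups stood in the order untreated wildtype, untreated Rb null, cisplatin wildtype, cisplatin Rb null. The rise was 2.51 ± 0.13 in log2 (SE, n = 3), or 5.68-fold, in wildtype cells (limma adjusted p = 1.08e-09) and 3.04 ± 0.13, or 8.22-fold, in Rb null cells (limma adjusted p = 1e-10). The latter was the largest cisplatin change of any member probe set.

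Hspa1b has 3 probe sets, and all of them rose in both genotypes. The probe set 1452318_a_at gave 647, 835 and 796 on the untreated wildtype arrays and 900.1, 870.4 and 862 on the untreated Rb null arrays. Under cisplatin the values were 2934, 2787 and 2834 in wildtype cells and 3089.8, 2519 and 2793 in the Rb null cells. Treated and untreated arrays were apart, while the genotypes overlapped after cisplatin. Its change was 1.90 ± 0.093 in wildtype cells and 1.66 ± 0.093 in the Rb null cells, and those of 1427126_at and 1427127_x_at were 2.08 ± 0.12 and 2.09 ± 0.089 in wildtype cells and 1.89 ± 0.12 and 2.00 ± 0.089 in the Rb null cells.

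Between treated genotypes a difference was called for Hspa1a. It was 2.13-fold higher in treated Rb null than in treated wildtype cells (1.09 ± 0.13 in log2, limma adjusted p = 1.15e-05), whereas the 3 Hspa1b probe sets differed by 0.069 ± 0.12, 0.21 ± 0.089 and -0.031 ± 0.093 and none was called. Before treatment the Hspa1a difference was 0.56 ± 0.13, or 1.47-fold, below the minimum. The difference between the cisplatin responses, Rb null minus wildtype, was 0.53 ± 0.19 for Hspa1a (limma adjusted p = 0.0381), also below 1.5-fold, and -0.19 ± 0.17, -0.085 ± 0.13 and -0.25 ± 0.13 for Hspa1b. With median centring the Hspa1a difference of responses was 0.63 and passed, as it did at 0.60 to 0.65 without any 1 of 4 arrays: cisplatin Rb null replicate 2, cisplatin wildtype replicate 2, untreated Rb null replicate 3 or untreated wildtype replicate 1. With the 25th percentile as pseudocount it was 0.59 and also passed. The untreated difference of Hspa1a passed at 0.59 with a pseudocount of 1, and at 0.59 to 0.64 without untreated Rb null replicate 1 or 2 or untreated wildtype replicate 2 or 3. Hspa1a and Hspa1b were not set against each other in a test.

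**Figure D2:**
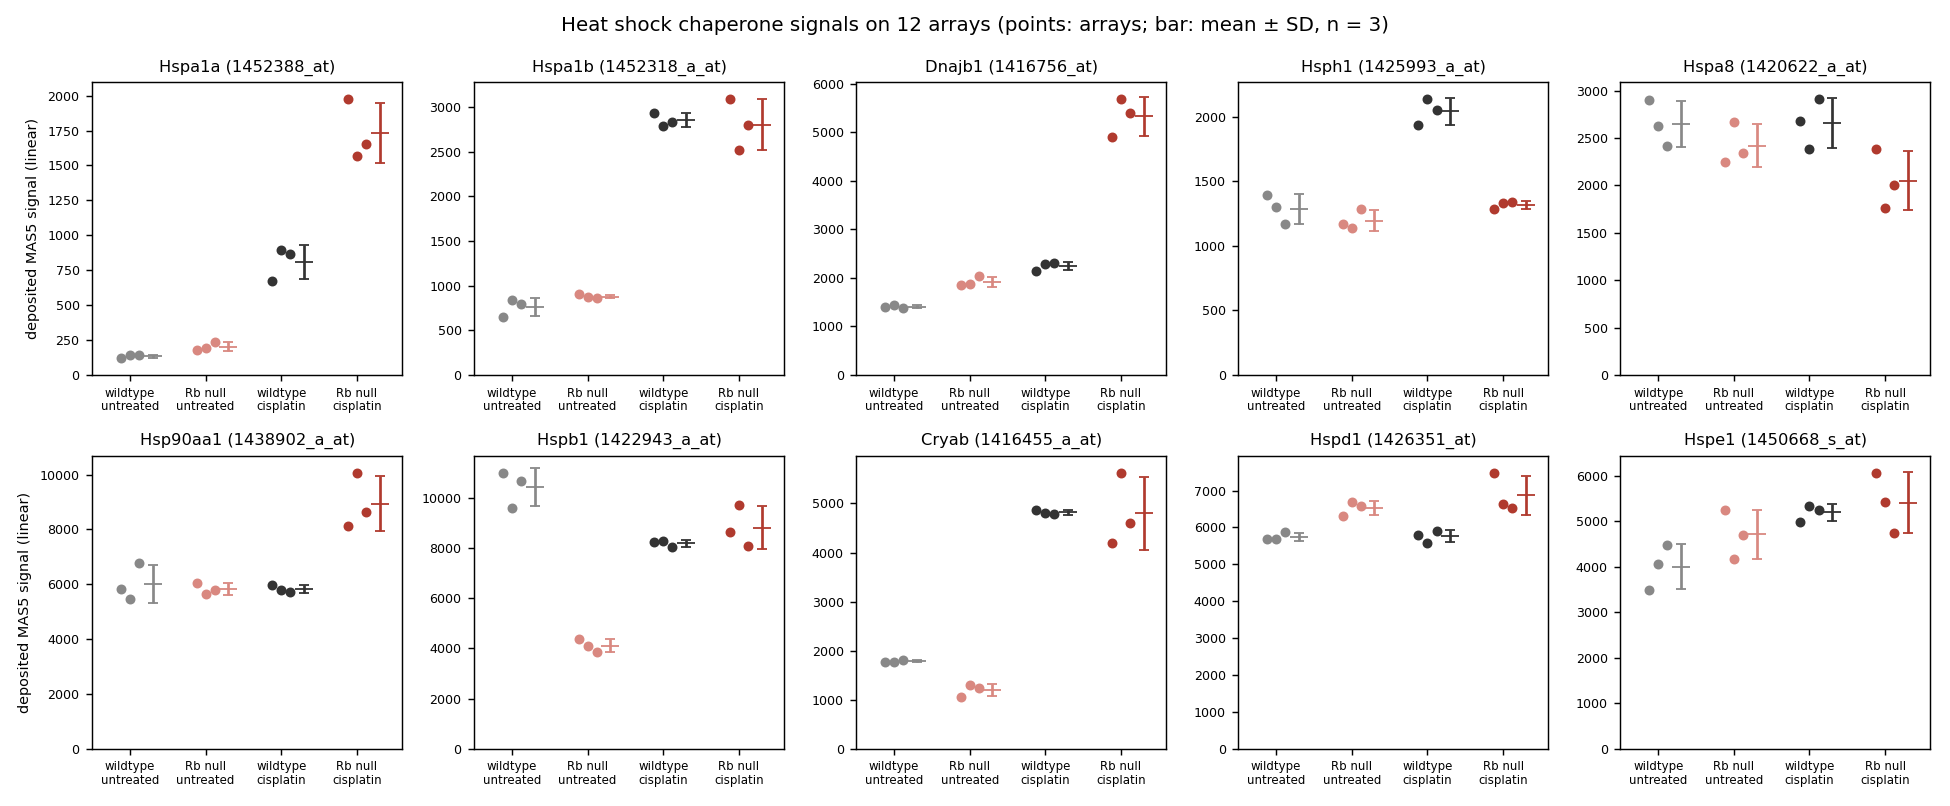
Deposited signal (y axis, linear scale) of 1 probe set per member gene in the 4 groups (x axis), with a point per array and bars for mean ± SD of 3 arrays. Hspa1a stands at 672 to 1977 on the treated arrays against 120.5 to 237 on the untreated ones, and Hspb1 is lowest in untreated Rb null cells.

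Dnajb1, the J-domain partner that stimulates the ATPase of stress-inducible HSP70, rose in both genotypes and further in Rb null cells. The probe set 1416756_at read 1391, 1436 and 1376 on the untreated wildtype arrays and 1854, 1868 and 2035 on the untreated Rb null arrays. Treated wildtype arrays gave 2147, 2284 and 2300.0 and treated Rb null arrays 4899, 5687 and 5404. The 4 groups did not overlap, and the treated Rb null arrays stood far above the rest. The rise was 1.6-fold in wildtype (0.68 ± 0.067 in log2, limma adjusted p = 8.24e-07) and 2.76-fold in Rb null cells (1.47 ± 0.067, limma adjusted p = 1.44e-10). The responses differed by 0.79 ± 0.094 (limma adjusted p = 1.81e-05). Its other probe set, 1416755_at, changed by 0.64 ± 0.085 in wildtype cells and 1.35 ± 0.085 in the Rb null cells, a difference of 0.71 ± 0.12; the wildtype change was 0.56 and not called without the untreated wildtype replicate 3. Treated Rb null cells exceeded treated wildtype cells by 1.24 ± 0.067 and 1.09 ± 0.085 on these probe sets, both called.

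Hsph1, the HSP110 nucleotide exchange factor of HSP70, had the opposite order between treated genotypes. On 1425993_a_at the untreated signals were 1397, 1303 and 1166 in wildtype cells and 1167, 1135 and 1287 in the Rb null cells. Cisplatin arrays read 1934, 2139.5 and 2052 in wildtype cells and 1284, 1332 and 1343 in the Rb null cells. The treated wildtype arrays were above all others, and the remaining 3 groups lay between 1135 and 1397. The wildtype rise was 0.66 ± 0.078, or 1.58-fold (limma adjusted p = 4.89e-06), and the Rb null change was 0.14 ± 0.078 with a 95% interval of -0.024 to 0.31. Treated Rb null cells were lower than treated wildtype cells, at a log2 difference of -0.62 ± 0.078 (limma adjusted p = 1.36e-05), a call that ended at -0.56 under median centring. The difference of responses, -0.52 ± 0.11 (limma adjusted p = 0.00201), fell short of 1.5-fold. The second probe set, 1423566_a_at, showed 0.58 ± 0.083 in wildtype, 0.22 ± 0.083 in Rb null cells and -0.55 ± 0.083 between treated genotypes, none of them at 1.5-fold. Without cisplatin wildtype replicate 2 the first and last were 0.65 and -0.63 and passed, the first also without untreated wildtype replicate 1 or 2 at 0.59 and 0.60, and the last without cisplatin Rb null replicate 3 at -0.59.

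The small heat shock protein Hspb1, an ATP-independent holdase that also binds actin filaments, was the member with the largest genotype difference before treatment. Untreated wildtype arrays of 1422943_a_at read 11018, 9593 and 10700.0, and untreated Rb null arrays read 4388, 4096 and 3864. After cisplatin the values were 8253, 8286 and 8037 in wildtype cells and 8663, 9746 and 8072 in the Rb null cells. The untreated Rb null arrays stood alone, below every array of the other groups. Untreated Rb null cells were 2.53-fold lower, -1.34 ± 0.072 in log2 (limma adjusted p = 3.84e-09), and treated Rb null cells differed from treated wildtype cells by 0.10 ± 0.072 (limma adjusted p = 0.253). Cisplatin changed the signal by 1.10 ± 0.072, 2.14-fold, in Rb null cells (limma adjusted p = 7.01e-09) and by -0.35 ± 0.072 in wildtype cells, the latter under the minimum fold. The responses differed by 1.44 ± 0.10 (limma adjusted p = 1.39e-07).

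The other Hspb1 probe set, 1425964_x_at, gave the same calls. It was 3.11-fold lower in untreated Rb null cells (-1.64 ± 0.071 in log2), changed by 1.27 ± 0.071 with cisplatin in Rb null and by -0.42 ± 0.071 in wildtype cells, and its responses differed by 1.69 ± 0.10 (limma adjusted p = 2.7e-08). Treated genotypes differed on it by 0.054 ± 0.071.

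Cryab encodes alpha-B crystallin, a small heat shock protein of lens, heart and skeletal muscle that is also stress-inducible in other cells. On 1434369_a_at the signals were 994, 911 and 885 on the untreated wildtype arrays and 491, 570.3 and 614 on the untreated Rb null arrays. After cisplatin they were 3556, 3408 and 3417 in wildtype cells and 2961, 3438 and 3698 in the Rb null cells. The untreated genotypes were apart, and the treated genotypes overlapped. Cryab rose 3.69-fold in wildtype (1.89 ± 0.093, limma adjusted p = 5.18e-10) and 5.93-fold in Rb null cells (2.57 ± 0.093, limma adjusted p = 1.35e-11), and the responses differed by 0.68 ± 0.13 (limma adjusted p = 0.000987). Untreated Rb null cells were lower, at -0.73 ± 0.093 (limma adjusted p = 2.69e-05), and treated cells differed by -0.046 ± 0.093 with an interval of -0.24 to 0.15.

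On the second tested Cryab probe set, 1416455_a_at, the rises were 1.43 ± 0.095 and 1.99 ± 0.095, both called. Its untreated genotype difference of -0.57 ± 0.095 and its difference of responses of 0.55 ± 0.13 were below 1.5-fold; with median centring they were -0.60 and 0.66 and passed. Without untreated Rb null replicate 2 they passed at -0.63 and 0.61, the first also without untreated Rb null replicate 3 at -0.60 and the second without cisplatin Rb null replicate 1 at 0.65. A further probe set, 1435837_at, was too weak to be tested, with signals of 36.6 to 96.2.

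Because Cryab and Hspb1 are abundant in muscle, markers of other cells are given beside them. The summed signal of 10 striated muscle markers was 3736 to 3950.1 in untreated wildtype, 2258 to 2345 in untreated Rb null, 817 to 1069.6 in treated wildtype and 911 to 1078 in treated Rb null cells. Acta1 made up most of the untreated sums, at means of 2785, 1717, 274 and 219.9, and of the 5 markers tested 4 were called lower in untreated Rb null than in untreated wildtype cells. Of the 10 muscle markers 5 passed the level filter, and the part of muscle cells in the untreated difference of Hspb1 and Cryab was not tested. With cisplatin the muscle sum was lower in both genotypes through Acta1, while single markers went both ways: in Rb null cells 2 of the 5 tested were called higher and 2 lower, and Tnnc1 went from a mean of 82.5 to 179 and Tnnt2 from 137 to 219. Of 7 lens markers on the array 0 passed the level filter, and their sum was 54.4 to 131.6 on all arrays, with the lens crystallin Cryaa at group means of 7.87 to 14.0. The sum of 7 neural markers was 5110 to 5669 in untreated wildtype and 3231 to 3723 in untreated Rb null cells. After cisplatin it was 1445 to 1742 and 1928 to 2522. Fabp7 had means of 1464, 178, 51.6 and 45.4 in the same order. Of 4 tested, 1 was called lower in untreated Rb null than in untreated wildtype cells. With cisplatin 3 were called lower in wildtype cells, and 2 lower and 1 higher in Rb null cells. The part of these markers in the chaperone values was not tested.

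Hspa8, the constitutive HSP70 of the cytosol that also uncoats clathrin vesicles, showed no called difference on any of its 4 probe sets in any of the 5 comparisons, and 4 of these 20 values had an unadjusted p under 0.05 in limma. On 1420622_a_at the untreated signals were 2902, 2626 and 2420.1 in wildtype cells and 2245, 2673 and 2347 in the Rb null cells. Treated values were 2676, 2386 and 2914 in wildtype cells and 2387, 1763 and 2002 in the Rb null cells. The cisplatin change was 0.0043 ± 0.11 in wildtype, with a 95% interval of -0.23 to 0.24, and -0.25 ± 0.11 in Rb null cells, with an interval of -0.48 to -0.0099. Probe set 1420623_x_at changed by 0.065 ± 0.072 and 0.086 ± 0.072, and 1455789_x_at by 0.41 ± 0.093 and 0.31 ± 0.093, the latter pair with limma adjusted p = 0.00183 and 0.00935 but under 1.5-fold. The fourth, 1431182_at, was weak, with signals of 106.5 to 215.2 and changes of -0.27 ± 0.23 and 0.20 ± 0.23. Its difference between treated genotypes, 0.34 ± 0.23, was 0.61 and called without cisplatin wildtype replicate 3.

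Hsp90aa1, the stress-inducible cytosolic HSP90, was called higher in treated Rb null than in treated wildtype cells on 2 of its 3 probe sets. Probe set 1438902_a_at read 5822, 5452 and 6787 on the untreated wildtype arrays and 6037, 5634 and 5796 on the untreated Rb null arrays. After cisplatin it read 5975, 5784 and 5702 in wildtype cells and 8130.4, 10069 and 8628 in the Rb null cells. All treated Rb null arrays exceeded every other array, and the other 3 groups overlapped. The change in Rb null cells was 0.61 ± 0.083 (limma adjusted p = 1.37e-05), that in wildtype cells -0.043 ± 0.083, the difference of responses 0.66 ± 0.12 (limma adjusted p = 0.00056) and the difference between treated genotypes 0.61 ± 0.083 (limma adjusted p = 2.84e-05). These 3 calls lie near the minimum fold: without the cisplatin Rb null replicate 2 they were 0.52, 0.57 and 0.52 and ended, as they did with quantile normalisation at 0.46, 0.44 and 0.46. The difference of responses was also 0.57 and not called without untreated wildtype replicate 3.

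On 1437497_a_at the treated Rb null arrays, at 6153, 6108 and 6159.7, also lay above the treated wildtype arrays, at 3893, 4040.1 and 4091. Untreated arrays gave 3601, 3749.9 and 3689 in wildtype cells and 4172, 4158 and 3981 in the Rb null cells, so that the treated Rb null group again stood alone. The treated genotypes differed by 0.61 ± 0.047, 1.53-fold (limma adjusted p = 1.46e-07), which was 0.55 and not called with quantile normalisation, and the change in Rb null cells was 0.58 ± 0.047, just under the minimum, which it passed at 0.59 without untreated Rb null replicate 1 or 2. The third probe set, 1426645_at, changed by 0.38 ± 0.060 in Rb null and 0.11 ± 0.060 in wildtype cells, without a call. On it treated Rb null cells exceeded treated wildtype cells by 0.42 ± 0.060 (limma adjusted p = 3.99e-05). Those arrays did not overlap, but the difference was under 1.5-fold.

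The mitochondrial pair Hspd1, the chamber-forming HSP60, and Hspe1, its lid HSP10, had no called difference in any comparison, with 2 of 5 values of Hspd1 and 2 of 10 values of Hspe1 at an unadjusted p under 0.05 in limma. For Hspd1 the untreated signals on 1426351_at were 5674, 5692 and 5865 in wildtype cells and 6302, 6681 and 6580.4 in the Rb null cells. Treated cells gave 5786, 5588 and 5912 in wildtype cells and 7487, 6623 and 6522 in the Rb null cells. Every Rb null array was above every wildtype array, by a margin well under 1.5-fold. The cisplatin change was 0.0044 ± 0.056 in wildtype (95% interval -0.12 to 0.13) and 0.074 ± 0.056 in Rb null cells (-0.047 to 0.20), and the genotype difference was 0.18 ± 0.056 untreated (limma adjusted p = 0.0217) and 0.25 ± 0.056 treated (limma adjusted p = 0.00185).

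Hspe1 had changes of 0.11 ± 0.089 in wildtype cells and 0.16 ± 0.089 in the Rb null cells on 1422579_at, whose signals ran from 903 to 1195. On 1450668_s_at the changes were 0.38 ± 0.10 (limma adjusted p = 0.0061) and 0.20 ± 0.10. Hence both probe sets moved by less than the 1.5-fold minimum. The Hspe1 window printed above holds 4 adjoining units of the element and Hspe1 was not called with cisplatin, while the Dnajb1 window holds no pair and Dnajb1 was called. Hspa1a and Hspa1b windows each hold 1 pair, and both genes were called in both genotypes. Windows of Hsph1 and Hspb1 also hold pairs, and these genes were called in wildtype and in Rb null cells, respectively. This is a description of letters and levels only, and control by the element was not tested.

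Between genotypes without treatment, 0 of the 22 member probe sets were called higher (9 at an unadjusted p under 0.05 in limma), against 7.68% of all tested, and 3 were called lower, against 4.69%. The 3 were both Hspb1 probe sets and 1 of Cryab. Without the untreated Rb null replicate 2 the calls were 5, with Hspa1a higher and a second Cryab probe set lower in addition. The median log2 difference over members was 0.11, beside -0.0043 over all tested probe sets, and Hspa1a had the highest value, 0.56. Every comparison with untreated wildtype cells carries the difference of sex makeup described above, and with it any difference of embryo or culture.

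After cisplatin, 5 of the 22 were called higher in Rb null than in wildtype cells, against 9.21% of all, and 1 was called lower, against 12.9%. Those higher were Hspa1a, both Dnajb1 probe sets and 2 of Hsp90aa1, and the lower one was Hsph1. This comparison does not use the untreated wildtype arrays; with that group left out of the fit, a step chosen after seeing the data, the counts were again 5 and 1, and that for cisplatin in Rb null cells was again 11. The members' median was 0.11, beside -0.043 over all.

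**Figure D3:**
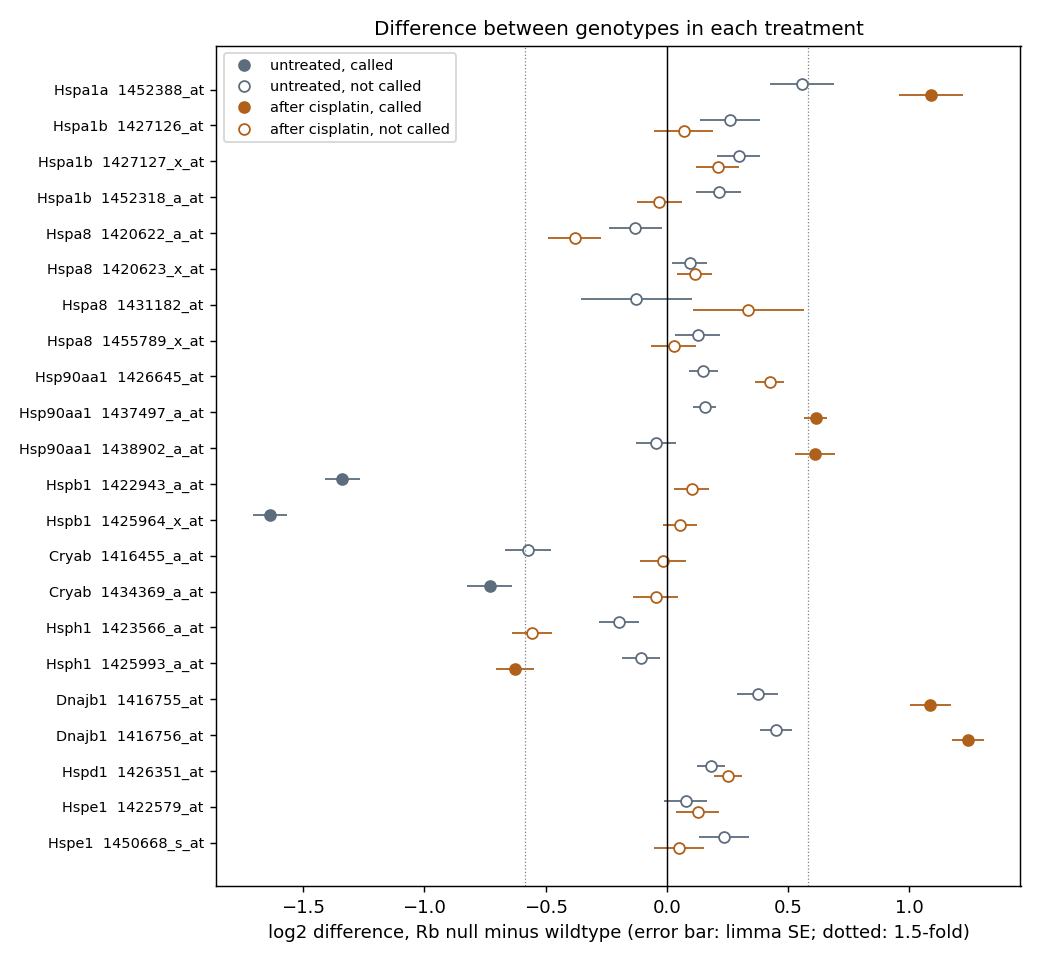
Log2 difference between genotypes (x axis, Rb null minus wildtype, limma estimate ± SE) for each of the 22 tested member probe sets (y axis), untreated and after cisplatin, with filled symbols for called differences and dotted lines at 1.5-fold. Hspb1 lies far to the left only when untreated, whereas Dnajb1, Hspa1a and 2 Hsp90aa1 probe sets pass the right-hand line after cisplatin.

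The cisplatin responses differed between genotypes for 6 of the 22 member probe sets, all with the larger value in Rb null cells, against 8.64% of all tested probe sets in that direction, and for 0 in the other (2 at an unadjusted p under 0.05 in limma), against 14.4%. They were both probe sets of Hspb1 and of Dnajb1 and 1 each of Cryab and Hsp90aa1. For Hspb1 and Cryab the untreated Rb null level was the low one and the treated levels of the genotypes overlapped or differed without a call, and for Dnajb1 and Hsp90aa1 it was the treated Rb null level that stood above the rest. Over the members the median difference was 0.17, beside -0.069 over all, and with median centring the share of all such calls that were positive moved from 37.5% to 51.6%.

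Other genes of protein folding were taken from lists of 131 genes, of which 107 were tested, each by 1 probe set. Of these, 10 rose and 8 fell with cisplatin in wildtype cells, or 9.35% and 7.48%, and 18 rose and 17 fell in Rb null cells, or 16.8% and 15.9%, against the same 13.5%, 13.2%, 15.8% and 20.9% of all tested probe sets. Between genotypes 4 were higher and 4 lower without treatment, or 3.74% each, against 7.68% and 4.69% of all tested probe sets. After treatment 7 were higher and 10 lower, or 6.54% and 9.35%, against 9.21% and 12.9%, so both shares lie below the background. For the difference of responses, Rb null minus wildtype, 6 were higher and 10 lower, or 5.61% and 9.35%, against 8.64% and 14.4%.

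Among the other small heat shock proteins, 3 of the 4 tested rose in Rb null cells and 0 in wildtype cells by limma, where 1 was higher at an unadjusted p under 0.05. Hspb8, which works with Bag3 in selective autophagy, was lower in untreated Rb null cells, at -0.79 ± 0.068 in log2, and rose with cisplatin by 1.52 ± 0.068, against 0.25 ± 0.068 in wildtype cells. The responses of Hspb8 differed by 1.27 ± 0.096 (limma adjusted p = 2.47e-07). Hspb2, which lies next to Cryab on chromosome 9 with no protein-coding start between them, rose by 0.70 ± 0.13 in Rb null cells and differed in response by 0.81 ± 0.18 (limma adjusted p = 0.00285), and in wildtype cells its value was -0.11 ± 0.13. Hspb11, an intraflagellar transport protein despite its symbol, rose by 0.71 ± 0.096 in Rb null cells, against 0.21 ± 0.096 in wildtype cells.

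Of 4 tested HSP70 relatives, 2 rose in each genotype. Hspa14, a ribosome-associated HSP70, rose by 0.93 ± 0.12 in wildtype cells and 0.82 ± 0.12 in the Rb null cells and was higher in Rb null cells before and after treatment, by 1.02 ± 0.12 and 0.91 ± 0.12. Hspa4l, an HSP110 protein like Hsph1, rose by 0.94 ± 0.086 in wildtype cells, changed by -0.055 ± 0.086 in Rb null cells and was lower in treated Rb null cells, at -0.83 ± 0.086 against wildtype cells. Its responses differed by -0.99 ± 0.12 (limma adjusted p = 2.22e-05). Hspa2, best known from the testis, was lower in untreated Rb null cells, at -0.65 ± 0.11, and rose there by 1.21 ± 0.11, against 0.29 ± 0.11 in wildtype cells.

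In the J-domain list 2 of 21 rose and 1 fell in wildtype cells, and 2 rose and 3 fell in Rb null cells. Dnajc9, which also acts as a histone chaperone, rose in both, by 1.68 ± 0.069 and 1.02 ± 0.069, and untreated Rb null cells exceeded wildtype cells in it by 1.75 ± 0.069. Its responses differed by -0.66 ± 0.098 (limma adjusted p = 0.000123). Dnajb4, a relative of Dnajb1, fell by 1.00 ± 0.093 on the log2 scale in wildtype cells and fell by 0.84 ± 0.093 in the Rb null cells. Dnajb2 was called higher in Rb null cells, at 0.93 ± 0.13, against 0.53 ± 0.13 in wildtype cells. Dnajc1, a J-domain protein of the endoplasmic reticulum, was called lower there, at -0.94 ± 0.14, against -0.39 ± 0.14. The responses of neither differed by 1.5-fold (0.40 ± 0.18 and -0.55 ± 0.20).

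Cochaperones gave 5 of 23 higher and 1 lower in wildtype cells, and 5 higher and 2 lower in Rb null cells. Bag2, an inhibitor of the HSP70-bound ubiquitin ligase Stub1, fell in both, by 0.91 ± 0.10 and 1.38 ± 0.10. Bag4 and Bag5, of the BAG family of HSP70 regulators, rose in both genotypes, Bag4 by 0.95 ± 0.082 (wildtype) and 0.99 ± 0.082 (Rb null) and Bag5 by 0.62 ± 0.16 and 1.16 ± 0.16. Fkbp5, an HSP90 partner of steroid receptors, had -0.50 ± 0.13 in wildtype cells, under the minimum fold, and fell, at -1.17 ± 0.13, in Rb null cells, a difference of -0.66 ± 0.18 (limma adjusted p = 0.0108). In the list of heat shock factors and regulators no heat shock factor was tested, since Hsf2 and Hsf4 did not pass the level filter and 5 of the 11 genes had no single-symbol probe set. The 4 tested regulators, Hsbp1, Mbip, Hdac6 and Sirt1, all rose in Rb null cells and 1 in wildtype cells, with Sirt1, a deacetylase that acts on heat shock factor 1, at 1.67 ± 0.12 and 1.30 ± 0.12, and Hsbp1, which binds heat shock factor 1, at 0.65 ± 0.063 and -0.076 ± 0.063.

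In the cytosolic TRiC and prefoldin list, 0 of 14 rose in either genotype by limma (5 in wildtype cells and 7 in the Rb null cells at an unadjusted p under 0.05) and 1, Pfdn1, fell in Rb null cells, at -1.03 ± 0.11 against -0.25 ± 0.11 in wildtype cells. Of 16 other mitochondrial chaperones and proteases 0 were called in wildtype cells (6 at an unadjusted p under 0.05 in limma), while 1 rose and 5 fell in Rb null cells, among them Dnajc15 at -1.40 ± 0.082 and Htra2 at -1.02 ± 0.094, against -0.43 ± 0.082 and -0.48 ± 0.094 in wildtype cells. Of 21 endoplasmic reticulum chaperones, 6 were called lower with cisplatin in each genotype, against 13.2% and 20.9% of all tested probe sets. In wildtype cells 0 were called higher and in the Rb null cells 1, and the medians were -0.36 and -0.26. At an unadjusted p under 0.05 in limma, 18 were lower and 1 higher in wildtype cells, and 13 lower and 2 higher in Rb null cells. Hsp90b1, the HSP90 of that compartment, fell in both genotypes, at -1.07 ± 0.056 (wildtype) and -0.75 ± 0.056 (Rb null), as did Pdia4, a disulfide isomerase, at -0.71 ± 0.18 and -1.27 ± 0.18. Dnajb9, a cochaperone induced by unfolded protein, was the 1 that rose in Rb null cells, by 2.13 ± 0.071, against 0.43 ± 0.071 in wildtype cells, and the responses differed by 1.70 ± 0.10 (limma adjusted p = 2.71e-08).

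**Figure D4:**
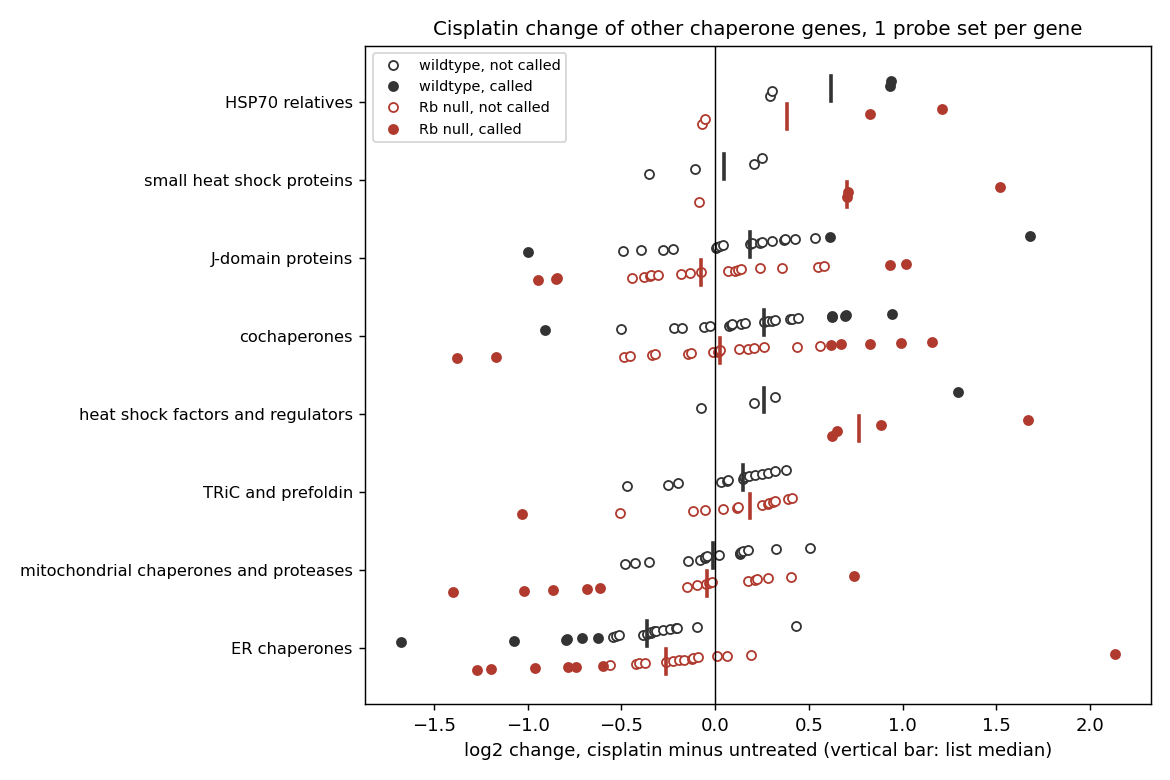
Log2 change with cisplatin (cisplatin minus untreated) of each tested list gene, by list and genotype, with a bar at each list's median. Endoplasmic reticulum chaperones have medians of -0.36 in wildtype cells and -0.26 in the Rb null cells, and the other small heat shock proteins have 0.048 and 0.71.

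Signs of RNA quality and markers of other cells are set beside these values. The ratio of 3′ to 5′ signal was 1.10 to 1.32 for the Actb controls and 0.759 to 0.881 for the Gapdh controls over the 12 arrays, with the highest values of both in treated Rb null cells. The summed signal of 10 macrophage markers was 4811 to 5148 in untreated wildtype, 6629 to 6921 in untreated Rb null, 10389 to 10979 in treated wildtype and 5557 to 5746 in treated Rb null cells, and their part in the values of the chaperones was not tested. Single markers went both ways in Rb null cells, where cisplatin gave 7 of 10 lower, such as C1qa from a mean of 499 to 104, and 2 higher, such as Cd14 from 684 to 1712. The 9 fibroblast markers summed to 59951 to 63831, 57386 to 59325, 46903 to 49082 and 36172 to 37219.8 in the same order. Treated Rb null cells thus had the lowest fibroblast sum, and also the highest Hspa1a, Dnajb1 and Hsp90aa1 signals. Of the 9 markers, cisplatin gave 4 lower and 0 higher in Rb null cells, such as Col1a1 from a mean of 9411 to 2658. Vim went from 15830 to 16586 there, and the part of these markers in the chaperone values was not tested.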

How the data were processed

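The 12 arrays, 3 in each of 4 groups by genotype and cisplatin, were deposited as linear signal intensity values that the authors made with MAS5, per the submitters' processing notes. The MAS5 version, scaling target and detection calls are not given in the sources used here; each array's mean with 2% trimmed at either end was 500.1 to 500.2, so the arrays had been scaled alike. From these values, log2(signal + 10.4), with the 10th percentile of all signals as pseudocount, was tested after leaving out 64 control probe sets and the 40% with the lowest mean. Of the 22690 probe sets, 20393 have 1 gene symbol in the platform annotation, which may be old, 691 have several and 1606 none. limma 3.58.1 in R 4.3.3 fitted a mean per group over all 12 arrays (lmFit, contrasts.fit, eBayes with a variance trend, 8 residual and 6.09 prior degrees of freedom), two-sided, with Benjamini-Hochberg adjustment. Errors are SD for signals and SE for log2 differences.

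The members and all gene lists were chosen with earlier results of these data known. All member probe sets are named, tested or not. Of the other lists, 1 probe set per gene was used, and up to 3 called genes with the largest changes per list and comparison qualified for naming. Mbip, and Hsf2, Hsf4, Sil1 and Dnajc17 that the filter left out, are named in addition. The fit was tested on simulated data for the untreated genotype comparison. It called 34.4% of changes set at 1.5-fold, 91% of those at 2-fold and 100% of those at 4-fold. Alternatives varied the pseudocount, filter, scaling, variance trend, minimum fold, arrays and probe sets per gene.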

Additional observations from a re-analysis of the deposited data

Results flagged for a closer look

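For 6 member probe sets the cisplatin response differed between genotypes by the test of the difference itself, Rb null minus wildtype (limma, Benjamini-Hochberg adjusted). Hspb1 differed by 1.69 ± 0.10 on 1425964_x_at and 1.44 ± 0.10 on 1422943_a_at (limma adjusted p = 2.7e-08 and 1.39e-07), with untreated Rb null signals below those of all other groups. Dnajb1 differed by 0.79 ± 0.094 on 1416756_at and 0.71 ± 0.12 on 1416755_at, with treated Rb null signals above all others. Cryab differed by 0.68 ± 0.13 on 1434369_a_at and Hsp90aa1 by 0.66 ± 0.12 on 1438902_a_at. Each value uses the untreated wildtype arrays, which carry Y-linked transcripts that the other groups lack at that level. A difference of embryo or culture cannot be told apart from these differences of response, and was not tested.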

How the results depend on the processing

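The reported counts were 3 for the untreated genotypes and 6 for the treated genotypes. They were 9 for cisplatin in wildtype cells, 11 for cisplatin in Rb null cells and 6 for the difference of responses. Dropping the minimum fold gave 10, 10, 15, 15 and 12 in the same order. For the untreated genotypes the 10 were 6 higher and 4 lower, against 0 higher and 3 lower with the minimum, so the balance of that comparison turned. Of the 15 for cisplatin in wildtype cells 2 were lower, as were 2 of the 12. A 2-fold minimum gave 3 for the treated genotypes and 2 for the difference of responses. It also ended the wildtype cisplatin calls of Dnajb1 and Hsph1, the Rb null cisplatin call of Hsp90aa1 and the untreated call of Cryab. With 1 probe set per gene, 10 in all, the counts were 1 for the untreated genotypes, 5 and 6 for cisplatin in wildtype and Rb null cells, and 3 for the difference of responses. Leaving out each array gave 3 to 5, 5 to 7, 8 to 10, 10 to 12 and 5 to 7. Of the recomputed values of single members, 54 came to be called, 22 were no longer called, 28 uncalled ones moved by more than the spread between arrays, 2443 did none of these, and 0 called values changed sign. The labels number the untreated arrays 1 to 3 and the treated ones a to c. Same-numbered arrays of the genotypes did not deviate together (correlations -0.16, 0.11 and -0.19 untreated, and -0.021, 0.084 and -0.00086 treated), so the numbers were not taken as pairs. A fit with the replicate block left the counts at 3, 6, 9, 11 and 6 and changed no member call. Few arrays of single RNA samples, weak probe sets such as 1435837_at, and an untreated wildtype culture of other sex composition limit these comparisons.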

Other observations

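Sil1, the nucleotide exchange factor of the endoplasmic reticulum HSP70, is a list gene that the level filter left out, chosen here after its values were seen. Its mean signal was 307.5 on the untreated wildtype arrays and 207 on the untreated Rb null arrays, against 11.4 in treated wildtype and 10.9 in treated Rb null cells. In the fit without the filter this was -3.87 ± 0.19 in wildtype cells (limma adjusted p = 4.11e-09) and -3.37 ± 0.19 in Rb null cells (limma adjusted p = 9.41e-09). The treated signals lie near the pseudocount of 10.4, so the size of the fall depends on it. Hsf2 and Dnajc17, also left out by the filter, were each called in a single comparison of that fit. Hsf2 rose with cisplatin in Rb null cells, at 0.72 ± 0.22 (limma adjusted p = 0.017), from a mean of 8.83 to 21.4. Dnajc17 was lower in treated Rb null than in treated wildtype cells, at -1.51 ± 0.42 (limma adjusted p = 0.0138), with means of 8.33 and 45.7. Both signals are weak, so these sizes also depend on the pseudocount.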
